A study of Mus musculus with 16 samples.

Results

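Macrophages were selected in the 6 tagged bone marrow stromal cell (BMSC) cultures of the Fgf23cKO and WT genotypes and were compared gene by gene. The cells were chosen by the summed counts of the gate genes named next, whose own levels are therefore no result. A cell was kept if it held at least 500 genes and less than 20% mitochondrial counts. It was then taken as a macrophage if, per 10000 unique molecular identifiers (UMIs, the counted RNA molecules), Lyz2, Tyrobp, Fcer1g, C1qa, C1qb and C1qc together reached at least 80 and Col1a1, Col1a2, Sparc, Tagln and Tpm2 together stayed under 25. This gave 5304 macrophages of the 5959 cells that passed the filter in these cultures, with 896, 1778 and 1487 in WT 1 to 3 and 358, 332 and 453 in Fgf23cKO 1 to 3. The whole series held 15847 passing cells of 17793 barcodes in 15 samples. WT mice carried the floxed Fgf23 allele (Fgf23 fl/fl) with intact Dmp1 and no Cre. Fgf23cKO mice carried the same alleles with a Dmp1-cre transgene, whose Dmp1 promoter is active in osteocytes and late osteoblasts. The paper names the transgenic line as B6N.FVB. All mice were 12-week-old male littermates on a C57BL/6J background, and BMSCs were grown for 21 days in osteoblastic medium with 10 mM β-glycerophosphate. Dmp1KO mice (Fgf23 fl/fl, no Cre) and Dmp1KO/Fgf23cKO mice (Dmp1KO with Fgf23 fl/fl and Dmp1-cre) served as the second genetic background, in which Dmp1 is absent. Cultures were tagged, pooled by genotype and loaded in 1 droplet reaction per genotype. Genotype and droplet reaction cannot be told apart in any value below.

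Fibroblast growth factor 23 (FGF23) is a hormone made by osteocytes and osteoblasts. It lowers phosphate reabsorption and active vitamin D in the kidney through FGF receptors with the co-receptor Klotho (Kl), and FGF receptors signal through the ERK kinases. Bone marrow macrophages adhere and persist in BMSC cultures, where they clear debris, handle iron and lipid, and can be precursors of osteoclasts.

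The 2 genotypes differed in depth. Macrophages held a median of 7420 ± 289 UMIs per cell in WT and 36993 ± 2659 in Fgf23cKO (SD, n = 3 cultures each), and a median of 2730 ± 46.7 and 6142 ± 182 genes. The mitochondrial share was 2.69% ± 0.021 in WT and 3.63% ± 0.0905 in Fgf23cKO. Summed over cells, the cultures were closer, with 7248397 to 14399409 macrophage UMIs in WT and 14048025 to 16527593 in Fgf23cKO. WT was also the shallowest of the 4 genotypes, since the medians were 21120 to 23190 UMIs in the Dmp1KO cultures and 35677 to 36695 in the Dmp1KO/Fgf23cKO cultures. Macrophages made up 89.4% ± 3.99 of passing cells in WT and 85.3% ± 0.969 in Fgf23cKO. Cells near the gate were few: 17 WT macrophages and 1 Fgf23cKO macrophage had a macrophage score of 80 to 88, and 20 and 4 cells fell at 72 to 80. No barcode was shared between the cultures. Fgf23cKO 3 stood apart when counts were compared between pairs of cultures. The chi-square per degree of freedom was 11.2 and 16.7 between it and Fgf23cKO 1 and 2. It was 3.37 between those 2 cultures and 1.90 to 2.69 among the WT cultures. This is a ratio of variances that also rises with the summed depth, which differed between cultures. The labels do not say that the cultures came from separate mice, so p-values measure the spread between cultures.

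The gated cells carried macrophage markers that the gate did not use. Csf1r, the receptor for the macrophage growth factor, averaged 856 CPM (counts scaled to a common library total) in WT and 859 in Fgf23cKO, and Adgre1 (F4/80) averaged 583 and 578. Markers of other cells were low. The 10 neutrophil genes summed to 9.86 to 12.5 CPM in WT and 10.0 to 11.3 in Fgf23cKO, with Elane, Ly6g and Retnlg at 0 UMIs, and the 11 T, NK and B cell genes to at most 0.69 CPM, with Cd3e, Cd3g and Gzma at 0. The erythroid, mast cell, dendritic, endothelial and adipocyte lists each summed to at most 7.68 CPM. The 20 stromal and osteoblast genes summed to 115.9 to 164.6 CPM in WT and 159.8 to 198.1 in Fgf23cKO. Of the 19 tested, 7 were higher in Fgf23cKO and none was lower (36.8% called beside 46.9% of all genes tested). Ibsp, a matrix protein of osteoblasts, was at 34.6 to 41.5 CPM in WT and 51.4 to 57.6 in Fgf23cKO. With a stricter macrophage gate 14 of 18 were higher, and their median log2 fold change went from 0.32 to 0.81. The part of stromal RNA in the results below was not tested.

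The deleted gene could not be checked in these cells. Fgf23 had 5, 4 and 0 UMIs in the macrophages of WT 1 to 3 and 8, 0 and 0 in Fgf23cKO 1 to 3. Dmp1 RNA, a product of osteocytes, had 57 UMIs in WT macrophages and 78 in Fgf23cKO macrophages, and its level did not pass the test (log2 fold change 0.03 ± 0.26, SE). In the Dmp1KO and Dmp1KO/Fgf23cKO macrophages Dmp1 had 0 UMIs.

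Fgf23cKO macrophages differed from WT macrophages in many genes by small amounts. Of 12913 genes tested, 3088 (23.9%) were higher and 2965 (23.0%) were lower at an adjusted p under 0.1 (edgeR quasi-likelihood test with Benjamini-Hochberg adjustment), 46.9% in all. A change of at least 2-fold was rarer, with 172 genes higher (1.33%) and 470 lower (3.64%). These shares are the background for the counts of each gene list below. The cultures did not overlap between genotypes in 51.0% of the genes tested. The median log2 fold change over all genes was 0.01. When each macrophage was reduced to 2000 UMIs, which left out 172 shallower WT cells and 7 shallower Fgf23cKO cells, 1269 genes were higher and 1215 lower. Of the 6053 genes called at full depth, 4875 had a value at equal depth per cell, 4678 of these kept their direction and 2331 kept their call. Equal depth per cell does not make the summed depth equal, since 843 to 1718 cells per culture remained in WT and 328 to 451 in Fgf23cKO.

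The 12 most strongly lower genes with a mean of at least 20 CPM were Ccdc162, Ccdc152, Kazn, Rapgef4, Snhg9, Dennd5b, Thbs1, Slc16a9, Ltc4s, Adap2os, Fam177a and Clec2d. Rapgef4 encodes EPAC2, which activates the GTPase Rap in response to cyclic AMP. Its level was 44.6, 55.9 and 50.8 CPM in WT 1 to 3 and 8.89, 8.97 and 12.2 CPM in Fgf23cKO 1 to 3. Every Fgf23cKO culture lay below every WT culture, and Rapgef4 fell by 2.36 ± 0.13 on the log2 scale (adjusted p = 1.24e-06). Kazn, which encodes the cell junction protein kazrin, was at 109, 136 and 150 CPM in WT and 26.5, 26.7 and 19.6 CPM in Fgf23cKO, and fell by 2.49 ± 0.16. Thbs1 encodes thrombospondin-1, a secreted matrix glycoprotein that activates TGF-β. Its level was 128, 109 and 114 CPM in WT and 36.8, 45.4 and 32.9 CPM in Fgf23cKO (log2 fold change −1.64 ± 0.11). Slc16a9, a monocarboxylate transporter, was at 56.9, 80.5 and 76.3 CPM in WT against 21.3, 32.6 and 18.1 CPM in Fgf23cKO (−1.62 ± 0.25). Ltc4s encodes leukotriene C4 synthase, which makes the first of the cysteinyl leukotrienes. It was at 72.2, 89.1 and 83.2 CPM in WT and 24.5, 33.2 and 24.6 CPM in Fgf23cKO (−1.62 ± 0.12). The highest Fgf23cKO culture lay below the lowest WT culture in each of these genes, which their choice required. The genotypes did not overlap in 51.0% of all genes tested.

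The remaining lower genes included several that share their locus with another gene. Ccdc162, a coiled-coil gene at chr10:41538846-41716634 (mm10, minus strand), fell from 32.2, 40.1 and 47.6 CPM to 4.79, 6.41 and 5.90 CPM (−2.86 ± 0.16). Ccdc152 lies on chr15 opposite Selenop, the plasma selenium carrier. It fell from 59.8, 70.5 and 65.3 CPM to 8.55, 9.33 and 10.1 CPM (−2.84 ± 0.09), while Selenop fell by 0.65 ± 0.10. Snhg9, a small nucleolar RNA host gene, lies opposite Rps2 and fell by 1.94 ± 0.09, while Rps2 rose by 0.92 ± 0.08. Adap2os fell by 1.47 ± 0.07 opposite Adap2, which fell by 0.42 ± 0.07. The sources used here do not state the strand used in counting. Whether the counts of Ccdc152, Snhg9, Adap2os and Ltc4s include reads of the genes they overlap was not tested. Dennd5b, which regulates Rab GTPases, fell by 1.91 ± 0.12, Fam177a by 1.41 ± 0.12 and Clec2d, a lectin that binds a natural killer cell receptor, by 1.39 ± 0.10.

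The 12 most strongly higher genes were Cxcl14, Cd207, Gphn, Lars2, Vim, Npy, Ncf4, AY036118 and 4 histone genes. Cxcl14 encodes a chemokine that is constitutively made in skin and other tissues. Its level was 30.7, 31.9 and 32.0 CPM in WT and 115 to 139 CPM in Fgf23cKO, a rise of 1.96 ± 0.08 on the log2 scale (adjusted p = 6.09e-08). Cd207 encodes langerin, the lectin of Langerhans cells. It was at 25.3, 22.9 and 22.9 CPM in WT and 83.7, 71.8 and 89.1 CPM in Fgf23cKO (1.76 ± 0.09). The 8 genes of the dendritic cell list summed to 4.03 to 5.52 CPM in WT and 3.56 to 5.45 CPM in Fgf23cKO, and Flt3 had 0 UMIs. Only 2 of these genes were tested, with log2 fold changes of −0.19 and 0.86, and neither passed. A dendritic cell source of Cd207 was not tested. Vim, the intermediate filament vimentin, was at 481, 391 and 391 CPM in WT and 1002, 880 and 1310 CPM in Fgf23cKO (1.31 ± 0.16). Ncf4, which encodes the p40 subunit of the phagocyte NADPH oxidase, was at 92.5, 85.7 and 94.1 CPM in WT and 218, 211 and 241 CPM in Fgf23cKO (1.27 ± 0.07). All 3 Fgf23cKO cultures exceeded all 3 WT cultures for each of these genes, which their choice required. The plot of the 24 genes by culture shows the levels.

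**Figure D1:**
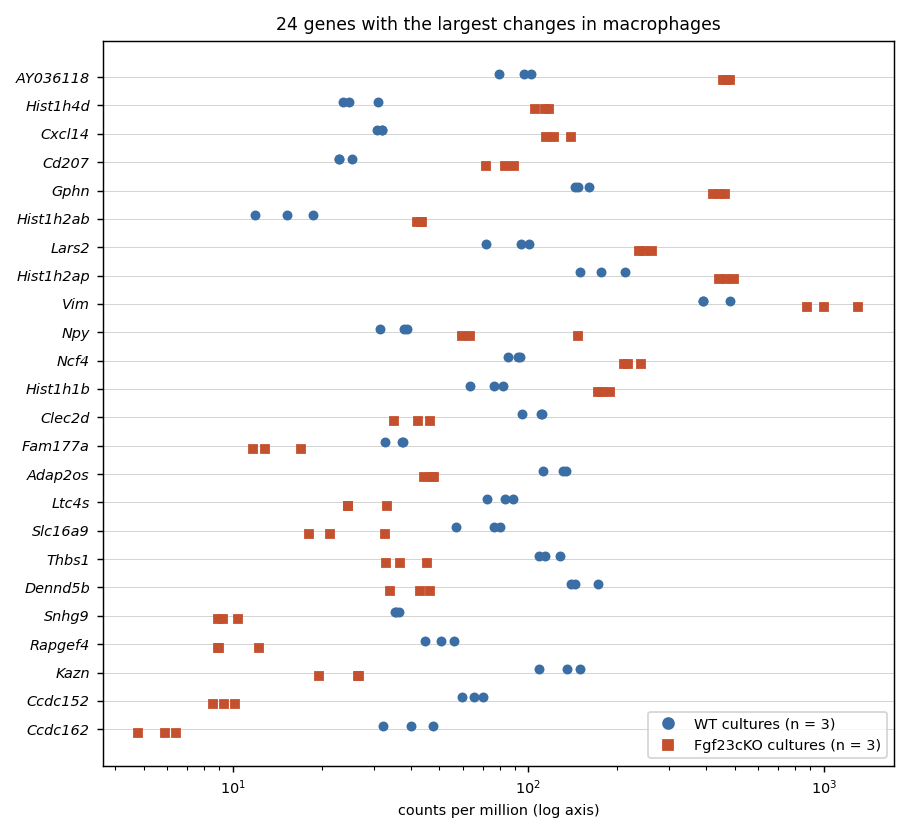
Level in macrophages (CPM, log axis) of the 12 most strongly lower and the 12 most strongly higher genes in each of the 3 WT and 3 Fgf23cKO cultures, 1 point per culture. The points of the genotypes do not overlap for any of the 24 genes, which the choice of genes required, and Npy shows the widest spread within Fgf23cKO, with 147 CPM in Fgf23cKO 3 against 59.7 and 63.6 CPM.

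Npy, which encodes neuropeptide Y, was uneven within Fgf23cKO and highest in Fgf23cKO 3. Its level was 38.8, 31.5 and 38.1 CPM in WT and 59.7, 63.6 and 147 CPM in Fgf23cKO (1.30 ± 0.47, adjusted p = 0.0968). Without Fgf23cKO 3 the log2 fold change was 0.75, and the call was lost without WT 1, WT 2, WT 3 or Fgf23cKO 2 (adjusted p = 0.114 to 0.233). Gphn, which encodes the scaffold protein gephyrin, was at 147, 143 and 160 CPM in WT and 463, 446 and 421 CPM in Fgf23cKO (1.53 ± 0.07). Lars2, a mitochondrial leucyl-tRNA synthetase, was at 72 to 101 CPM in WT and 237 to 263 CPM in Fgf23cKO (1.44 ± 0.11). The strongest rise was that of AY036118, a transcript at chr17:39847113-39848035 (mm10) inside a ribosomal RNA locus. It went from 79.8, 96.5 and 102 CPM to 466, 455 and 483 CPM (2.29 ± 0.08), and the overlapping Gm42418 from a mean of 1138 to 5115 CPM (2.13 ± 0.08).

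Histone genes were the one family that filled several places among the higher genes. Replication-dependent histone RNAs usually end in a stem-loop and carry no poly(A) tail, and poly(A) capture reads a minority of them. Hist1h4d was at 31.0, 23.6 and 24.8 CPM in WT and 117, 105 and 114 CPM in Fgf23cKO (2.08 ± 0.09, adjusted p = 1.27e-07). Hist1h2ap was at 212, 149 and 177 CPM in WT and 498, 443 and 467 CPM in Fgf23cKO (1.36 ± 0.12), and the linker histone gene Hist1h1b was at 82.0, 63.7 and 76.7 CPM against 189, 172 and 177 CPM in Fgf23cKO. Hist1h2ab was at 11.9 to 18.7 CPM in WT and 42.1 to 43.6 CPM in Fgf23cKO. Hist1h3e rose by 1.40 ± 0.10 and Hist1h3f by 1.54 ± 0.15. Of 69 histone genes tested, 30 were higher and 8 were lower, with a median log2 fold change of 0.21 beside 0.01 for all genes (55.1% called beside 46.9%). The lower count was 5 without WT 1 and 4 without WT 3. At equal depth per cell 13 of 31 were higher and 2 lower. Without cells high in cycling or osteoclast genes 19 of 54 were higher and 7 lower. H3f3b, a replication-independent histone with a poly(A) tail and the list member at the highest level, changed from 1311, 1206 and 1252 CPM to 1419, 1402 and 1447 CPM (0.15 ± 0.06). Near-identical copies of histone genes can share reads, so single members are uncertain.

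The 250 bases before the start sites of the 4 histone genes among the most strongly higher genes are shown. These members of 1 cluster on chromosome 13 were chosen for their rise, so their shared direction is no result. Capitals mark the TATA box (searched as TATAAA), the CCAAT box and the GC box (searched as GGGCGG), each on either strand. The windows are chr13:23581318-23581567 (plus strand) for Hist1h4d, chr13:23750838-23751087 (plus) for Hist1h2ab, chr13:21833476-21833725 (minus) for Hist1h2ap and chr13:21780626-21780875 (minus) for Hist1h1b, from RefSeq on GRCm38.p6.
Hist1h4d: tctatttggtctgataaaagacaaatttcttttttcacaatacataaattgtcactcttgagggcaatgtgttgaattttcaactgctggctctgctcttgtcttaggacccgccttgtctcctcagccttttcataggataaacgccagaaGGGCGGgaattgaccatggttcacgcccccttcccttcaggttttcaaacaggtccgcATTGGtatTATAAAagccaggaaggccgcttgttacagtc
Hist1h2ab: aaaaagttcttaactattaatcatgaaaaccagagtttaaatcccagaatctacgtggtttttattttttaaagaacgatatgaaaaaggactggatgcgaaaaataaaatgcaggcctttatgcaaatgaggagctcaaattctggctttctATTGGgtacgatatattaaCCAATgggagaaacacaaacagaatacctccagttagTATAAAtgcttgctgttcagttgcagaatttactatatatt
Hist1h2ap: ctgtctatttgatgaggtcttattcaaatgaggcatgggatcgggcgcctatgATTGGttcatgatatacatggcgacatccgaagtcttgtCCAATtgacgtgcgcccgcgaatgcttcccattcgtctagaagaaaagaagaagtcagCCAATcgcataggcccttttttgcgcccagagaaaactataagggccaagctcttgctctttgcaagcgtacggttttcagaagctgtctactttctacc
Hist1h1b: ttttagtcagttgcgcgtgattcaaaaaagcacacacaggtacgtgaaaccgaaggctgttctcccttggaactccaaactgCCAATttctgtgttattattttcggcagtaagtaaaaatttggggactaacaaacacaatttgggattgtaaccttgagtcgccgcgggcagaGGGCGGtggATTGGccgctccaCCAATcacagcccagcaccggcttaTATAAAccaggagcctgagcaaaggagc
Hist1h4d, Hist1h2ab and Hist1h1b each held 1 exact TATAAA, and Hist1h2ap held none. The Hist1h2ap window holds tataag, which the exact search does not count. The bases directly after that window begin with atg, so the start site used for Hist1h2ap lies at a start codon. Where its transcription starts was not tested. Each of the 4 held the CCAAT box on at least 1 strand. Over windows from 250 bases before to 50 bases after the start, the CCAAT box occurred in 87.0% of 54 Hist1 to Hist4 promoters of tested genes and in 37.4% of all 32851 promoters, the TATA box in 55.6% and 13.6%, and the GC box in 37.0% and 35.7%.

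The genes of the FGF receptors were examined, since FGF23 acts in kidney through FGF receptors with Klotho. Whether any of them senses FGF23 in these macrophages was not tested. Fgfr2 was the receptor gene with the most UMIs, and it was lower in Fgf23cKO. Its level was 136, 141 and 163 CPM in WT and 63.3, 53.5 and 62.4 CPM in Fgf23cKO, a fall of 1.33 ± 0.08 on the log2 scale (adjusted p = 2.19e-06). The genotypes did not overlap for Fgfr2, as in 51.0% of all genes tested. Fgfr1, the receptor through which FGF23 acts in kidney, was at 2.43, 3.05 and 2.59 CPM in WT and 2.50, 3.56 and 2.89 CPM in Fgf23cKO and did not pass the test (0.10 ± 0.22). Fgfr3 had 7 and 6 UMIs and Fgfr4 had 2 and 2 UMIs in all WT and all Fgf23cKO macrophages. Kl was at 0 UMIs in both genotypes, which allows up to 0.0871 CPM in WT and 0.0667 CPM in Fgf23cKO (3 counts over the 3 cultures, counting error only). Of the 5 members of the receptor list tested, Fgfr2 alone passed, and Fgfrl1, Frs2 and Frs3 did not. In sums over cells, fewer expressing cells and less RNA per cell cannot be told apart.

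Feedback genes of the ERK pathway went in both directions. Of 12 tested, 6 were lower and 3 higher, and 75.0% were called beside 46.9% of all genes. Dusp6, the ERK phosphatase that ERK itself induces, was at 171, 181 and 184 CPM in WT and 119, 135 and 91.3 CPM in Fgf23cKO (−0.67 ± 0.13, adjusted p = 0.0049). Dusp5, a nuclear ERK phosphatase, fell by 0.81 ± 0.15, the ETS factor Etv1 by 0.56 ± 0.12 and the immediate early gene Ier3 by 0.45 ± 0.12. The inhibitor Spry2 fell by 0.30 ± 0.09 and the ETS factor Etv5 by 0.22 ± 0.07. Dusp4, a phosphatase of the same family, rose from 14.5, 15.4 and 15.8 CPM to 33.0, 33.6 and 30.4 CPM (1.04 ± 0.08), Ccnd1 rose by 0.48 ± 0.09 and the inhibitor Spred2 by 0.22 ± 0.07. At equal depth per cell 3 of 9 were lower and 2 higher, and the median went from −0.26 to −0.01. Of 7 phosphate transport and vitamin D genes tested, 2 were higher and 2 lower (57.1% called beside 46.9% of all genes). Xpr1, the phosphate exporter, was at 98.6, 99.9 and 92.3 CPM in WT and 96.8, 86.0 and 84.7 CPM in Fgf23cKO (−0.15 ± 0.07, adjusted p = 0.0808), and its call was lost in 8 of the alternatives. Enpp1, which makes the mineralization inhibitor pyrophosphate, fell by 0.51 ± 0.08, and Ank, which exports it, rose by 0.38 ± 0.09, a call lost at equal depth per cell.

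Of 16 macrophage identity genes, 2 were higher, 5 lower and 9 did not pass the test, so 43.8% were called beside 46.9% of all genes. Maf, a transcription factor of resident macrophages, had the largest difference, from 1977, 2152 and 2065 CPM in WT to 933, 1003 and 801 CPM in Fgf23cKO (−1.21 ± 0.08, adjusted p = 2.07e-06). Its levels did not overlap, as in 51.0% of all genes tested, and its log2 fold change lay between −1.30 and −1.13 under every alternative processing run. Cx3cr1, the fractalkine receptor, was at 270, 256 and 249 CPM in WT and 167, 185 and 130 CPM in Fgf23cKO (−0.72 ± 0.12). Ctss and the mannose receptor gene Mrc1 were also lower, by 0.32 ± 0.06 and 0.32 ± 0.11. The call for Mrc1 was lost without any 1 of the 3 WT cultures, at adjusted p of 0.117 to 0.161 by edgeR, and with all genotypes fitted together. Spi1, which encodes the lineage factor PU.1, rose from 256, 244 and 253 CPM to 345, 345 and 389 CPM (0.49 ± 0.07), and the endotoxin co-receptor Cd14 from 72.4 to 86.0 CPM to 116 to 131 CPM (0.62 ± 0.07). Without Fgf23cKO 3, 4 were higher and 5 lower, and without WT 2, 2 were higher and 3 lower.

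Monocyte and alternative activation genes had a few strong differences at low levels. Ccr2, the chemokine receptor of classical monocytes, was at 12.8, 13.4 and 15.9 CPM in WT and 3.61, 1.35 and 2.09 CPM in Fgf23cKO (−2.62 ± 0.26, adjusted p = 6.02e-05). Fn1 (fibronectin) rose by 0.85 ± 0.17 and the aspartic peptidase gene Napsa by 1.16 ± 0.34, the latter a call lost without WT 2 or WT 3. Thus 2 of 6 monocyte genes were higher and 1 lower (50.0% called beside 46.9% of all genes). Of 7 alternative activation genes, none was higher and 3 were lower (42.9% called beside 46.9% of all genes). Mgl2 and Clec10a, galactose-binding lectins, fell by 1.60 ± 0.20 and 1.19 ± 0.21 from 5.09 to 5.82 CPM and 15.4 to 20.6 CPM in WT. The third was Mrc1.

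Lipid genes were split. Of 16 genes of lipid-associated macrophages, 5 were higher and 3 lower (50.0% called beside 46.9% of all genes), and of 10 cholesterol efflux and liver X receptor target genes, 1 was higher and 6 lower (70.0%). The lipid-associated count was 3 higher and 2 lower without WT 2 or WT 3, and 8 higher and 3 lower without Fgf23cKO 1. Lgals3 (galectin-3) was at 2199, 1821 and 2015 CPM in WT and 3731, 3143 and 6383 CPM in Fgf23cKO (1.10 ± 0.31, adjusted p = 0.0451). Fgf23cKO 3 was the highest culture, and without it the log2 fold change was 0.74. The call was lost at equal depth per cell and without WT 2 or WT 3, as was that of Apoe. Plin2, the coat protein of lipid droplets, rose from 146, 134 and 141 CPM to 247, 232 and 386 CPM (1.01 ± 0.22). Apoe, which carries cholesterol out of macrophages and is one of their most abundant RNAs, was at 16617, 18962 and 17819 CPM in WT and 14056, 15180 and 10092 CPM in Fgf23cKO (−0.48 ± 0.15, adjusted p = 0.0375). Abca1, the cholesterol exporter, fell by 0.49 ± 0.09, the phospholipid transfer protein gene Pltp by 1.02 ± 0.15, the desaturase gene Scd2 by 0.75 ± 0.11 and the fatty acid and lipoprotein receptor gene Cd36 by 0.68 ± 0.07. Cholesterol synthesis genes did not share a direction (47.8% called), with 5 of 23 higher, among them Mvk by 0.83 ± 0.15 and Ebp by 0.57 ± 0.08, and 6 lower. Their master regulator Srebf2 did not pass the test (0.12 ± 0.06).

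Scavenger and efferocytosis receptors were lower in 7 of 17 and higher in 3 (58.8% called beside 46.9% of all genes), and without Fgf23cKO 3 in 7 and 5. Axl, a receptor for apoptotic cells, was at 103, 107 and 100 CPM in WT and 56.4, 60.8 and 42.4 CPM in Fgf23cKO. Colec12 fell by 0.66 ± 0.08 and the haptoglobin-haemoglobin receptor gene Cd163 by 0.63 ± 0.18. Of 14 complement genes outside the gate, 6 were lower and 2 higher (57.1%). C3, the central complement component, averaged 16.4 CPM in WT and 10.7 CPM in Fgf23cKO (−0.65 ± 0.18), where Fgf23cKO 2 overlapped WT 3. Cd55, a complement inhibitor, fell by 1.96 ± 0.36 from under 5 CPM, and Itgb2, a subunit of complement receptor 3, fell by 0.60 ± 0.06.

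Targets of NF-κB were higher more often than lower, in 11 against 2 of 20, with a median log2 fold change of 0.29. Thus 65.0% were called, beside 46.9% of all genes, of which 23.9% were higher and 23.0% lower. At equal depth per cell the count was 9 against 1 of 16, and without Fgf23cKO 3 it was 12 against 1. Nfkbia, the inhibitor that NF-κB induces, was at 105, 103 and 108 CPM in WT and 227, 229 and 181 CPM in Fgf23cKO (0.98 ± 0.09, adjusted p = 1.48e-05). Tnfaip3, which encodes the feedback inhibitor A20, rose from 38.4, 31.0 and 28.5 CPM to 64.8, 74.6 and 55.4 CPM (0.98 ± 0.14). Il1b rose by 1.18 ± 0.20 from 4.30 to 5.82 CPM in WT, and Tnfaip2 fell by 0.68 ± 0.06 from 640 to 663 CPM. Ptgs2 passed the test at 1.35 to 2.15 CPM in WT and 1.78 to 5.63 CPM in Fgf23cKO, but the call was lost under a stricter macrophage gate and without WT 1, WT 2, WT 3, Fgf23cKO 1 or Fgf23cKO 2. Chemokine ligands went both ways, with 5 of 17 higher and 7 lower (70.6% called). Without WT 2, WT 3 or Fgf23cKO 1, 3 were higher. Cxcl1, a neutrophil attractant, rose by 1.22 ± 0.16 and Ccl4 fell by 0.73 ± 0.11. Ccl8 had 87 UMIs in WT and 5 in Fgf23cKO, and Ccl5 had 100 and 29. Ccl2, the ligand of Ccr2, fell by 0.30 ± 0.11 (adjusted p = 0.0544), a call that 7 of the alternatives that left out a culture or changed a setting did not keep.

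Of 27 interferon-stimulated genes, 6 were lower and 2 higher, so 29.6% were called beside 46.9% of all genes. Without Fgf23cKO 2, 13 were lower and 1 higher. Ifi27l2a was at 445, 441 and 445 CPM in WT and 220, 228 and 211 CPM in Fgf23cKO (−1.05 ± 0.06, adjusted p = 5.3e-07). Ifitm3, which blocks virus entry, fell by 0.72 ± 0.05 and Xaf1 by 0.78 ± 0.12. MHC class II genes were low and uneven between cultures, with 1 of 7 higher and 1 lower (28.6% called), and 3 of 8 lower without WT 2. Cd74, the invariant chain, was at 52.9, 32.6 and 65.5 CPM in WT and 19.4, 63.2 and 23.8 CPM in Fgf23cKO, and the genotypes overlapped (−0.54 ± 0.60). H2-DMa fell by 0.58 ± 0.09.

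Iron and redox genes formed a mixed picture. Ftl1, the light chain of the iron store ferritin, was at 10595, 11244 and 11286 CPM in WT and 16808, 16629 and 19422 CPM in Fgf23cKO (0.64 ± 0.07, adjusted p = 4.16e-05). The heavy chain gene Fth1 did not pass (0.05 ± 0.06). Slc40a1, the iron exporter ferroportin, was at 389, 465 and 420 CPM in WT and 282, 299 and 227 CPM in Fgf23cKO (−0.69 ± 0.10). The ferroxidase gene Cp fell by 0.84 ± 0.17 and Ncoa4, the receptor that delivers ferritin to lysosomes, by 0.58 ± 0.08. In all 4 of 12 iron genes were higher and 6 lower (83.3% called beside 46.9% of all genes), and 2 were higher without WT 1, Fgf23cKO 1 or Fgf23cKO 2. Of 20 antioxidant targets of NRF2, 11 were lower and 3 higher (70.0%), and 5 were higher without Fgf23cKO 3. Slc7a11, the cystine importer, fell from 86.7, 68.4 and 81.7 CPM to 45.9, 48.0 and 43.4 CPM (−0.81 ± 0.09), Osgin1 fell by 0.84 ± 0.18 and Prdx1, the member at the highest level, by 0.55 ± 0.06.

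Of 21 hypoxia and glycolysis genes, 13 were higher and 3 lower (76.2% called beside 46.9% of all genes), and at equal depth per cell 13 of 20 were higher and 2 lower. Gapdh was at 467, 452 and 451 CPM in WT and 818, 797 and 887 CPM in Fgf23cKO (0.84 ± 0.06, adjusted p = 3.43e-06). The glycolytic enzyme genes Eno1 and Pgam1 rose by 0.80 ± 0.07 and 0.66 ± 0.09. Of the 16 that passed, the 3 that were lower were Vegfa, Hk2 and Bnip3, and Vegfa, the angiogenic factor, fell by 0.87 ± 0.11 from 61.9, 65.9 and 64.1 CPM to 29.9 to 42.9 CPM. Of 20 integrated stress response genes, 10 were higher and 1 lower (55.0%), but 6 were higher without WT 2, WT 3 or Fgf23cKO 1. Asns, the asparagine synthetase gene, was at 8.70 to 10.1 CPM in WT and 21.7, 11.4 and 26.6 CPM in Fgf23cKO (1.10 ± 0.34), and its call was lost with no filter on low counts and without WT 2, WT 3, Fgf23cKO 1 or Fgf23cKO 3. Of 26 immediate early and heat shock genes, 11 were higher and 2 lower (50.0%), none was lower without WT 1 or WT 3, and at equal depth per cell 6 of 24 were higher and none lower. Btg2 rose from 50.6, 53.7 and 48.5 CPM to 104, 105 and 81.5 CPM (0.89 ± 0.10), Egr3 by 0.73 ± 0.11 and Jund by 0.64 ± 0.09, while Hspa8, the member at the highest level, rose by 0.26 ± 0.05.

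Cells with cycling genes made up 7.68% ± 1.02 of WT macrophages and 8.38% ± 0.655 of Fgf23cKO macrophages (SD, n = 3). Of 22 S phase genes, 12 were higher and 1 lower (59.1% called beside 46.9% of all genes), at equal depth per cell 3 of 19 were higher, and without cells high in cycling or osteoclast genes 7 of 22 were higher and 1 lower. Of 22 G2 and mitosis genes, 5 were higher and 3 lower (36.4%), without Fgf23cKO 3 it was 11 and 2, without WT 2 it was 3 and 3, and without those cells none was higher and 6 were lower. Mki67 was at 87.9, 77.6 and 74.0 CPM in WT and 123 to 160 CPM in Fgf23cKO (0.79 ± 0.10), a call lost without those cells. Nusap1 fell by 0.68 ± 0.19 and Hmgb2 by 0.52 ± 0.07.

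Lysosome genes were lower in 21 of 48 and higher in 10 (64.6% called beside 46.9% of all genes), and without WT 3 they were lower in 12 and higher in 9. Ctsl, which encodes cathepsin L, rose from 506, 495 and 509 CPM to 887, 944 and 1428 CPM (1.08 ± 0.19). The vacuolar ATPase gene Atp6v1e1 fell by 0.75 ± 0.06, the palmitoyl thioesterase gene Ppt1 by 0.74 ± 0.06 and Ctsb, the lysosomal gene at the highest level, by 0.12 ± 0.05, a call lost in 9 of the alternatives. Metalloproteinases and their inhibitors were higher in 5 of 11 and lower in 3 (72.7%). That count was 2 higher and 1 lower without WT 1, and 3 higher without WT 2, WT 3, Fgf23cKO 1 or Fgf23cKO 2. Timp1 rose by 0.83 ± 0.17, and the membrane collagenase gene Mmp14 fell from 128, 127 and 120 CPM to 78.1, 91.8 and 49.9 CPM (−0.81 ± 0.23), a call lost with no filter and without WT 1 or WT 2. Mmp9, a gelatinase of osteoclasts, was at 17.9, 3.75 and 22.3 CPM in WT and 3.34, 0.926 and 0.921 CPM in Fgf23cKO (−3.10 ± 0.97, adjusted p = 0.0673), and its call was lost with no filter, under a stricter gate and without WT 1, WT 3, Fgf23cKO 2 or Fgf23cKO 3. Of 10 osteoclast genes tested, Mmp9 was the 1 lower and Tnfrsf11a, the RANK receptor gene, the 1 higher (0.25 ± 0.10). The call for Tnfrsf11a was lost without any 1 culture but Fgf23cKO 3. Calcr had 0 UMIs. Of 19 S100, annexin and galectin genes, 5 were higher and 4 lower, which is 47.4% beside 46.9% of all genes. Without Fgf23cKO 3 it was 5 and 8, and without Fgf23cKO 2 it was 9 and 4. Anxa1 rose by 0.88 ± 0.22, while S100a4 did not pass (0.50 ± 0.24).

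**Figure D2:**
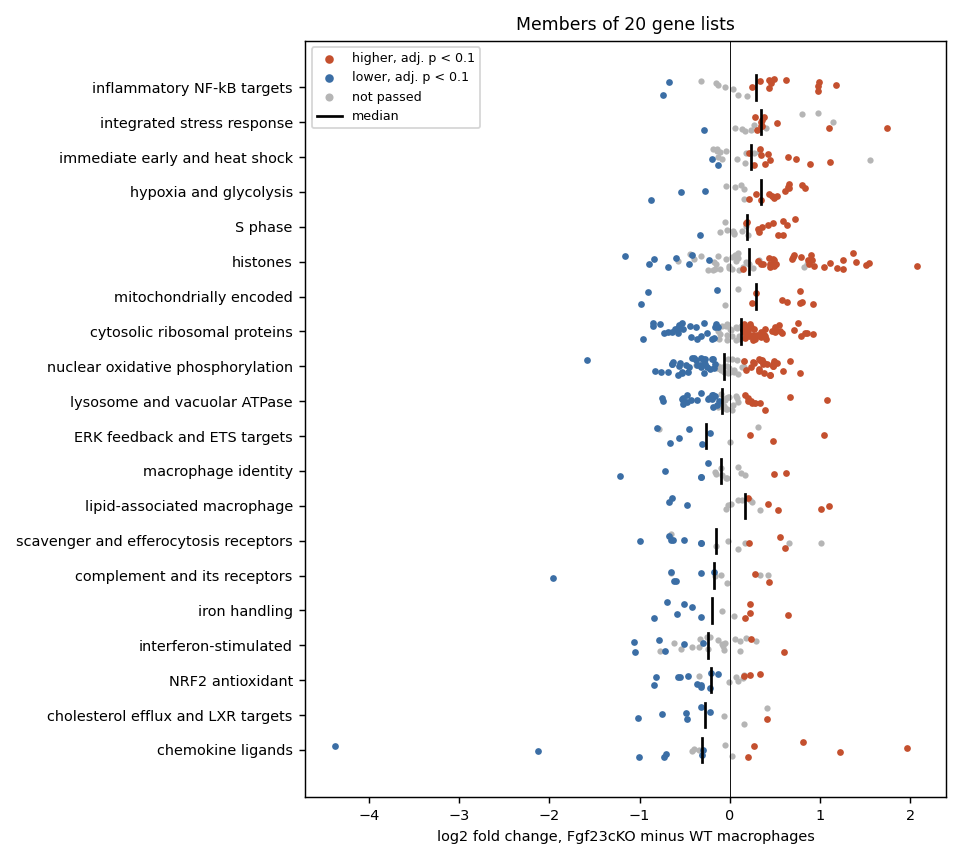
Log2 fold change of Fgf23cKO over WT macrophages (horizontal axis) in 20 gene lists, 1 point per gene tested, coloured by whether it passed as higher or lower, with a bar at the median of each list. NF-κB targets, hypoxia and glycolysis genes and histones have medians of 0.29, 0.35 and 0.21, and every list shown has members on both sides of 0.

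Ribosomal and respiratory chain genes differed in direction along the length of their transcripts. Of 83 cytosolic ribosomal protein genes, 38 were higher and 25 lower (75.9% called beside 46.9% of all genes). Rps29 was at 8579, 9294 and 9482 CPM in WT and 5076, 5084 and 5382 CPM in Fgf23cKO (−0.85 ± 0.06), and Rpl3, a longer transcript, at 409, 406 and 408 CPM against 737, 728 and 792 CPM (0.85 ± 0.06). Of 79 nuclear oxidative phosphorylation genes, 26 were higher and 33 lower (74.7% called), with Atp5k falling by 0.77 ± 0.07 and Atp5f1 rising by 0.78 ± 0.06. Over genes, the log2 fold change rose with transcript length in both lists (Spearman 0.56 over 82 ribosomal genes and 0.63 over 76 oxidative phosphorylation genes, genes not being independent replicates). Over all 6392 genes with a mean of at least 20 CPM and a known length, the Spearman correlation was −0.08. For Dmp1KO/Fgf23cKO over Dmp1KO macrophages it was 0.48 over the same number of genes. In all genes with a mean of at least 20 CPM, the median log2 fold change was −0.38 for the 71 genes of up to 500 bases, of which 48 were lower and 7 higher. It was −0.09 for 279 genes of 500 to 750 bases, 0.16 for 363 of 750 to 1000 bases, 0.18 for 693 of 1000 to 1500 bases, 0.08 for 802 of 1500 to 2000 bases and between −0.01 and 0.03 in the longer classes. Stromal cells of the same cultures had medians of −0.34, −0.10, 0.13 and 0.16 in the first 4 classes. When the trend with length was removed, 49 ribosomal genes were higher and 20 lower, and the oxidative phosphorylation split turned to 32 higher and 23 lower.

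**Figure D3:**
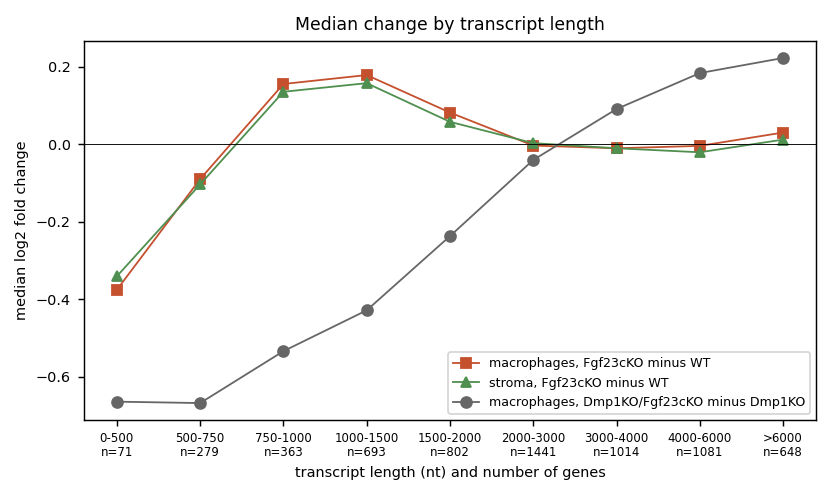
Median log2 fold change in classes of transcript length (bases), for Fgf23cKO over WT in macrophages and in stromal cells and for Dmp1KO/Fgf23cKO over Dmp1KO in macrophages. The shortest class has medians of −0.38, −0.34 and −0.66, and the first 2 lines run close together over all classes while the last rises to 0.22 in the longest class.

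The mitochondrially encoded genes were mostly higher, in 8 of 13, with 3 lower (84.6% called beside 46.9% of all genes). mt-Nd2 was at 1199, 1244 and 1294 CPM in WT and 2366, 2523 and 2383 CPM in Fgf23cKO (0.93 ± 0.06), and mt-Atp6 rose by 0.80 ± 0.06. mt-Nd4l fell by 0.99 ± 0.08 and mt-Nd6 by 0.90 ± 0.07. The summed level went from 27019 to 27952 CPM in WT to 36300 to 38080 CPM in Fgf23cKO. This sum and the mitochondrial share per cell given above rest on the same counts.

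The deletion of Fgf23 was also made on the Dmp1KO background, in cultures and reactions that the comparison above did not use. There 6795 macrophages of 2 Dmp1KO and 3 Dmp1KO/Fgf23cKO cultures were compared, and 3957 of 13769 genes were higher (28.7%) and 5140 lower (37.3%), 66.1% in all. Of the 6053 genes called in Fgf23cKO over WT, 2333 (38.5%) had the same direction on the Dmp1KO background, beside 5569 of all 12913 genes tested (43.1%). Among genes called in both, 1621 went the same way and 2903 the opposite way. Of the 642 genes with a change of at least 2-fold (4.97% of those tested), 316 (49.2%) had the same direction, near the 43.1% of all genes. The difference of the log2 fold change between backgrounds passed the test in 8691 of 13769 genes (63.1%) and in 4846 of the 6053.

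**Figure D4:**
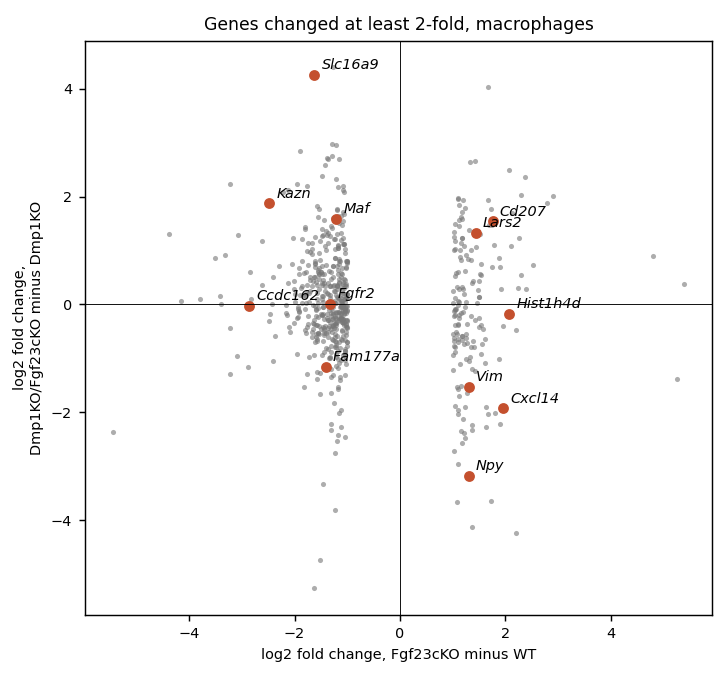
Log2 fold change of Fgf23cKO over WT (horizontal) against that of Dmp1KO/Fgf23cKO over Dmp1KO (vertical) in macrophages for the 642 genes called with at least a 2-fold change. The gap around 0 on the horizontal axis is set by the choice of genes, and the points fill all 4 quadrants, with 316 of 642 on the same side of 0 on both axes.

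Some genes moved in the same direction on both backgrounds. Gphn rose by 1.53 and by 1.30, Lars2 by 1.44 and 1.33, Cd207 by 1.76 and 1.54, Nfkbia by 0.98 and 1.06 and Cxcl1 by 1.22 and 1.08. Of the 20 NF-κB targets, 15 were higher and 1 lower on the Dmp1KO background. Of all genes tested there, 28.7% were higher and 37.3% lower. Other genes moved in opposite directions, and the difference passed the test for each of the next 5. Maf had a log2 fold change of −1.21 on the wild-type background and 1.59 on the Dmp1KO background, Dusp6 of −0.67 and 1.19, Cxcl14 of 1.96 and −1.92, Vim of 1.31 and −1.53 and Lgals3 of 1.10 and −1.96. Of the 22 S phase genes 19 were lower and none higher on the Dmp1KO background, beside 37.3% of all genes lower. Of the ribosomal genes 82 of 83 were lower there, and of the hypoxia and glycolysis genes 16 were lower and 3 higher. The log2 fold change on that background rose with transcript length, with a Spearman correlation of 0.48 over 6392 genes and 0.10 within 82 ribosomal genes. The part of length in these counts was not tested.

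Set side by side in the 4 genotypes, these genes followed different orders. With all samples scaled together, Fgfr2 was at 130 to 156 CPM in WT and at 43.2 to 60.7 CPM in the 8 other tagged cultures. Maf was at 1889 to 2055 CPM in WT, 767 to 957 CPM in Fgf23cKO and 876 to 946 CPM in Dmp1KO/Fgf23cKO, which overlapped, and at 262 and 365 CPM in Dmp1KO. Kazn was at 104 to 144 CPM in WT, 18.8 to 25.5 CPM in Fgf23cKO, 16.8 to 21.1 CPM in Dmp1KO/Fgf23cKO and 5.06 and 5.28 CPM in Dmp1KO. Gphn was at 137 to 153 CPM in WT and 149 and 158 CPM in Dmp1KO, both without Cre. It was at 403 to 444 CPM in Fgf23cKO and 362 to 386 CPM in Dmp1KO/Fgf23cKO, both with Cre. The genotypes with Cre also had the deepest macrophages, so Cre, droplet reaction and depth cannot be told apart here. AY036118 was at 434 to 462 CPM in Fgf23cKO and at 76.2 to 140 CPM in every other tagged culture. For 472 of the 642 genes with a change of at least 2-fold (73.5%), the 3 WT cultures lay beyond all 8 others in the direction of the change. That share was 64.0% of the 6053 called genes and 33.1% of all genes tested. The 3 Fgf23cKO cultures lay beyond all others in 63 (9.81%), against 6.15% of called genes and 3.35% of all genes tested. The 642 genes were chosen for a gap between Fgf23cKO and WT, and the 8 others include the Fgf23cKO cultures. The choice therefore sets part of these shares, which are a description. WT was also the shallowest genotype, and the part of depth in this count was not tested.

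**Figure D5:**
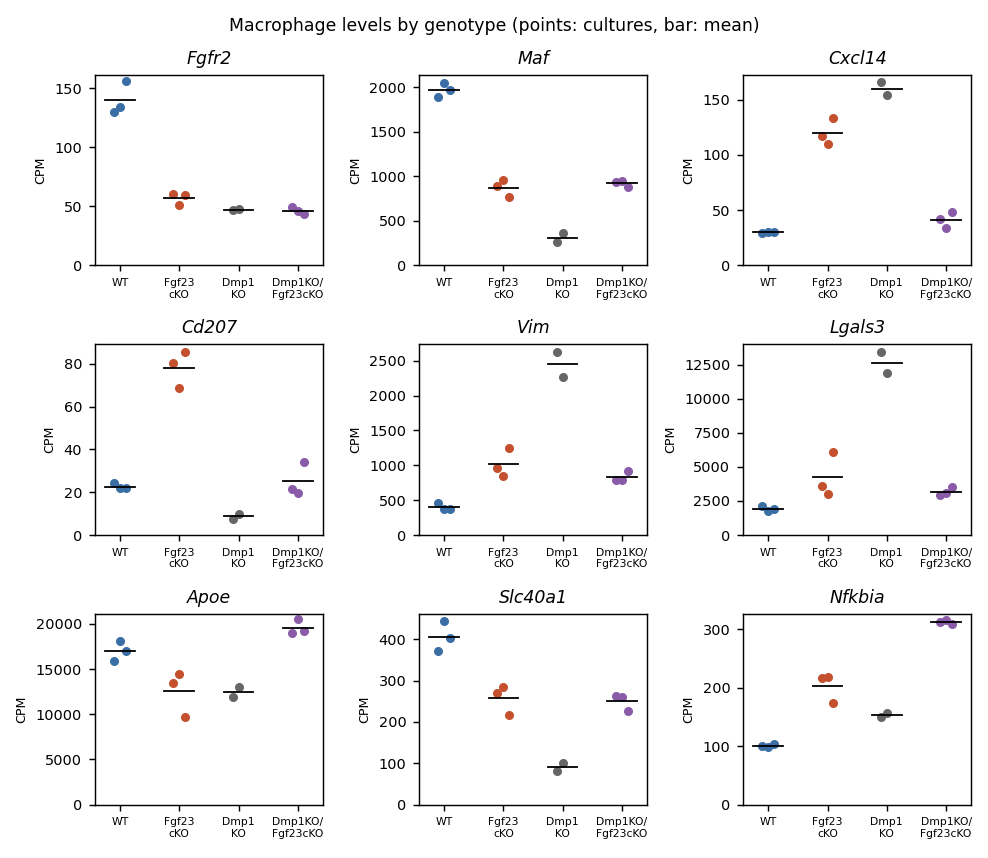
Level (CPM, all samples scaled together) of 9 genes in the macrophages of the 11 tagged cultures, by genotype, 1 point per culture and a bar at the mean. Fgfr2 and Maf are highest in WT, Maf and Slc40a1 are lowest in Dmp1KO, and Cxcl14, Vim and Lgals3 are lowest in WT and highest in Dmp1KO.

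The stromal cells of the same cultures, gated with the limits exchanged, were compared side by side. They were few, with 221 cells in WT and 127 in Fgf23cKO, and 786 of 10724 genes were called (7.33%). The difference between macrophages and stroma passed the test in 50 of 13685 genes (0.365%). Among the genes named here, Rapgef4 (−2.36 in macrophages and −0.90 in stroma), Fgfr2 (−1.33 and −0.44), Thbs1 (−1.64 and −0.74) and Dusp6 (−0.67 and 1.32) passed it, as did Ank (0.38 and 2.44), Egr3 (0.73 and −0.86) and Tnfaip3. The number of such calls ran from 17 to 128 when 1 culture was left out. Of 4928 genes called in macrophages and tested in stroma, 3975 (80.7%) had the same direction in stroma. That share was 69.4% of all 9800 genes tested in both. Among genes called in both classes, 549 went the same way and 13 the opposite way. Vim, Lgals3, Gapdh, Rpl3 and mt-Nd2 were higher in both classes, at 1.51, 1.71, 0.74, 0.93 and 1.22 in stroma. Both classes come from the same reactions, so this comparison does not separate genotype from reaction.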

How the data were processed

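Raw UMI counts per gene and cell were used as deposited. The authors made these counts with Cell Ranger 7.0.1 (per the file headers), mapped to mm10 with demultiplexing of the culture tags, which removes cells with several tags. Their submitted notes also name Seurat. The library of 1 Dmp1KO culture was not analysed here, and the untagged remainder of each genotype entered only 1 alternative. No doublet caller was run, and doublets within a culture can remain. The gate left out 67 WT and 16 Fgf23cKO cells that were high in both gene sums.

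Counts were summed over macrophages per culture, and genes with low counts were removed by filterByExpr. Genotypes were compared with edgeR 4.0.16 (TMM, robust quasi-likelihood test, R 4.3.3) and Benjamini-Hochberg adjustment, with an adjusted p under 0.1 as the threshold. Values after ± are standard errors unless SD is given. Every adjusted p is from an edgeR fit across all genes, the main one unless a left-out culture or another setting is named. An exact permutation test of 3 against 3 cultures cannot go below 0.1. The difference between backgrounds was an interaction term, and that between cell classes was fitted with culture as a block. Cells were gated with Python 3.11.15, and the code was tested on simulated data.

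The genes named are the 12 with the largest change in each direction (adjusted p under 0.1, mean of at least 20 CPM, cultures not overlapping, no gate, mitochondrial or predicted genes) and, for each list, up to 4 members with the largest called change and the most abundant one. Further list members and neighbouring genes named beside them were chosen after their values were seen. The members and lists were chosen with earlier results of these data known. Alternatives were DESeq2 1.42.0, other size factors, no filter, equal depth, stricter gates, added untagged samples, a joint fit of all genotypes, a replicate block and leaving out each culture. Removal of the trend with transcript length was chosen after seeing the data. Promoters were from RefSeq (GRCm38.p6), and 18 of the 24 leading genes matched.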

Additional observations from a re-analysis of the deposited data

Results flagged for a closer look

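Of the 30 leading and FGF pathway genes considered, 27 differed between the backgrounds in their macrophage log2 fold change (edgeR interaction term). This difference passed in 63.1% of all genes tested. Each fold change also compares different droplet reactions, which cannot be told apart from genotype. Most of the 30 were chosen for a large change of Fgf23cKO over WT, which is itself a term of this difference, so the count is a description. The values are the log2 fold change of Dmp1KO/Fgf23cKO over Dmp1KO less that of Fgf23cKO over WT. Among genes lower in Fgf23cKO than WT, the difference was 5.89 for Slc16a9, 4.36 for Kazn, 3.44 for Ccdc152, 2.87 for Ltc4s, 2.83 for Ccdc162, 2.15 for Thbs1, 2.03 for Adap2os, 1.85 for Snhg9, 1.77 for Rapgef4, 1.76 for Dennd5b, 1.34 for Fgfr2 and 1.20 for Clec2d. It was 1.86 for Dusp6, 1.82 for Ier3, 1.78 for Etv1 and 0.80 for Dusp5. Among genes higher in Fgf23cKO, it was −4.49 for Npy, −3.89 for Cxcl14, −2.84 for Vim, −2.56 for Hist1h2ap, −2.26 for Hist1h4d, −1.98 for Ncf4, −1.80 for Hist1h1b, −1.77 for Hist1h2ab, −1.75 for AY036118, −0.93 for Dusp4 and −0.23 for Gphn.

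The log2 fold change of Fgf23cKO over WT also differed between macrophages and stromal cells of the same cultures. Macrophages less stroma, it differed by −2.04 for Dusp6, −1.53 for Rapgef4, −0.96 for Thbs1 and −0.95 for Fgfr2. Of all 147 named genes that passed the test in macrophages, the difference between backgrounds passed for 120 and that between cell classes for 7, beside 63.1% and 0.365% of all genes tested. These genes too were chosen on a fold change that enters both differences.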

How the results depend on the processing

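At equal depth per cell (2000 UMIs) 2484 genes were called, 1269 higher and 1215 lower, with 89 and 187 changed at least 2-fold, and the backgrounds differed in 4024 genes. With no filter on low counts 261 genes were at least 2-fold higher and 714 lower. There the macrophage log2 fold change differed from the stromal one in 589 genes. That last count was 94 with a stricter gate and 25 at an adjusted p under 0.05. It ran from 17 to 128 when 1 culture was left out, at 17 without WT 1, 19 without WT 2 or WT 3, 90 without Fgf23cKO 3 and 128 without Fgf23cKO 1. DESeq2 called 2400 genes higher and 2340 lower, and leaving out 1 culture gave 4761 to 6371 calls. Among 147 named genes, 109 kept their call under every alternative that gave a value. Over all alternatives, 2371 of 2475 values kept direction and call, 102 lost the call and 2 changed sign, Cenpe (−0.0023 without cells high in cycling or osteoclast genes) and H2-DMb1 (−0.0612 at equal depth per cell). The causes were not tested.

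With the replicate number as a block, 6104 genes were called (3139 higher, 2965 lower), and the backgrounds differed in 8477. The deviations of same-numbered WT and Fgf23cKO cultures correlated at 0.0866, 0.1753 and 0.0698, so the numbers were not taken to pair the cultures, although every culture correlated best with its own number. The block was not added to the comparison of cell classes, where the culture already is the block. The cultures per genotype limit the precision of every value, and counting error is larger in the shallower WT cells.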

Other observations

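The untagged remainder of each genotype entered none of the main comparisons above, only the alternative that added it. Its macrophages differed between Fgf23cKO and WT in the direction of the call for 5281 of the 6053 called genes (87.2%) and for all 24 leading genes, beside 72.7% of all genes tested. For Fgfr2 the untagged WT sample was at 178 CPM and the untagged Fgf23cKO sample at 64.0 CPM, and for Maf at 1771 and 917 CPM, with all samples scaled together. Cx3cr1, called lower in Fgf23cKO, did not differ in this way, at 210 CPM in the untagged WT sample and 211 CPM in the untagged Fgf23cKO sample. By the study methods these samples are cells of the same pooled cultures and reactions as the tagged ones. Only 5 of 649 barcodes in the untagged WT sample and 0 of 1312 in the untagged Fgf23cKO sample held no tag counts. The called and leading genes were chosen on those same cultures. The samples are therefore not independent cultures, and the shares above are a description.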
